A study of Homo sapiens with 4 samples.

Results

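THY1 encodes a small glycoprotein of the cell surface, also called CD90, and its transcript level is described here across the 4 RNA-seq libraries of the study, as 1 gene of the 27685 gene IDs in each deposited table. It was found by its gene ID, 7070, which the RefSeq tables pair with the symbol THY1, and it stood on 1 row of each table. THY1 was selected on its TPM values, because they differed between the groups in an earlier reading of these data, so its own values are given as a description, with no test. The treated cultures were of NCC-IT-A3, a human embryonal carcinoma line (malignant germ cells that resemble the cells of the early embryo), which received barasertib at 100 nM over 4 days. Barasertib inhibits Aurora B, a kinase of mitosis. The control cultures were of the same line and received the solvent DMSO over the same time. Each group held 2 libraries, prepared from total RNA with a stranded kit for messenger RNA. The labels do not state whether replicate libraries stem from separate cultures, so the p-values below cover the spread among these 4 libraries, which could be technical alone.

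THY1 belongs to the immunoglobulin superfamily and has a single immunoglobulin domain and no stretch that crosses the membrane. It is held in the outer leaflet by a glycosylphosphatidylinositol (GPI) anchor, a glycolipid that is built in the endoplasmic reticulum and attached to the protein there. The protein gathers in cholesterol-rich patches of the membrane, signals through kinases of the Src family on the inner side, and binds integrins and syndecan-4 on neighbouring cells. It is known as a surface marker of fibroblasts, mesenchymal stromal cells, neurons, blood stem cells and human pluripotent stem cells.

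THY1 was at 120.4 and 111 TPM in the barasertib libraries, against 7.83 and 7.15 TPM in the DMSO libraries. TPM is transcript abundance scaled by transcript length and to a fixed library total, so it can be compared between genes. Both barasertib libraries lay far above both DMSO libraries, and the replicates of a group were close together. The group means were 116 ± 6.75 TPM with barasertib and 7.49 ± 0.480 TPM with DMSO (SD, n = 2 each), a ratio of 15.4. Pairing any barasertib library with any DMSO library gave a ratio between 14.2 and 16.8. Within a group, the higher library exceeded the lower by a factor of 1.09 in both groups. On the log2(TPM + 1) scale, on which all differences below are given, the barasertib libraries were at 6.92 and 6.81 and the DMSO libraries at 3.14 and 3.03, a difference of 3.78. The replicates of THY1 differed by 0.12 with barasertib and by 0.12 with DMSO on that scale, against a median of 0.10 (barasertib) and 0.09 (DMSO) over all tested genes.

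The other measures in the tables gave the same order. THY1 had 52.2 and 47.7 FPKM with barasertib and 3.44 and 3.14 FPKM with DMSO, a ratio of means of 15.2. The mean read depth over the gene was 176 and 160.0 with barasertib, against 10.8 and 10.3 with DMSO, a ratio of 16.0. A mean depth does not show where along the gene the reads fell. The depth of the whole libraries, estimated from the ratio of coverage to FPKM, was 4.59 and 4.52 Gb of aligned sequence with barasertib and 4.22 and 4.43 Gb with DMSO. The tables give no read counts, so no counting interval could be attached to these values.

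**Figure D1:**
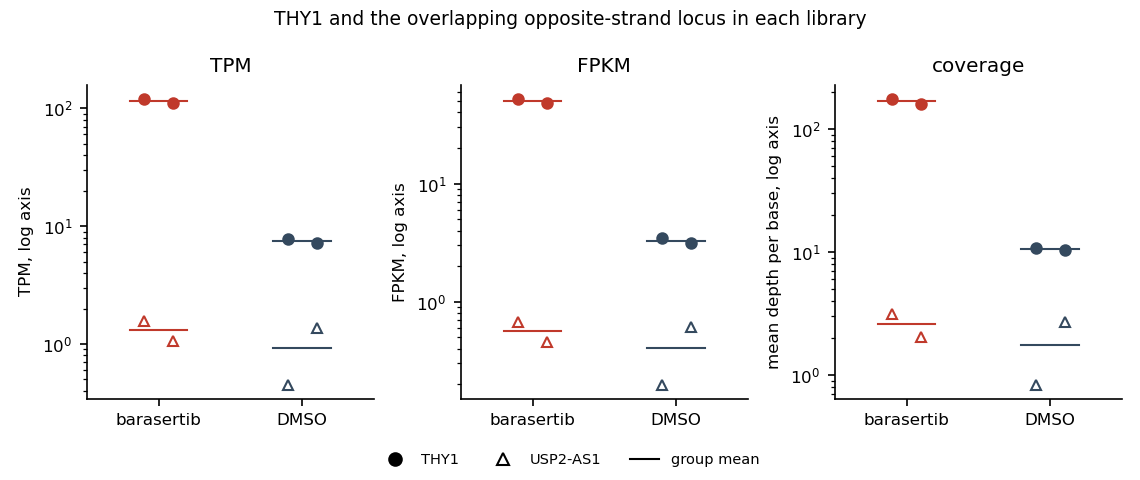
THY1 (filled circles) and USP2-AS1, the locus on the opposite strand (open triangles), in each library, as TPM, FPKM and mean read depth per base, on log axes; horizontal lines are group means of 2 libraries. THY1 sits at 111 to 120.4 TPM with barasertib and at 7.15 to 7.83 TPM with DMSO, whereas the USP2-AS1 points of the groups overlap.

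In rank, THY1 was 1440th and 1591st of all gene IDs by TPM in the barasertib libraries, and 9555th and 9812th in the DMSO libraries. Put as shares, it lay above 92.3% and 91.4% of the IDs with a level above 0 in the barasertib libraries, and above 45.5% and 44.2% of them in the DMSO libraries. THY1 thus stood high among detected genes with barasertib and a little below their middle with DMSO. By group mean, its neighbours with barasertib were DNAJC11, a mitochondrial protein, just above it (119 and 112 TPM) and SPTBN1, a spectrin of the membrane skeleton, just below it (115 and 116 TPM). Neither differs from THY1 beyond the spread of its libraries. With DMSO the neighbours were SOCS1, an inhibitor of cytokine signalling (8.48 and 6.51 TPM), and ARHGEF6, a guanine nucleotide exchange factor (7.17 and 7.82 TPM), and both again overlapped the range of THY1.

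By difference between the groups, THY1 came first of the 13938 tested genes, those that averaged 1 TPM or more over the 4 libraries. The membrane protein gene TMEM200B came next, at a log2 difference of 3.48, which is 0.30 less than that of THY1. After it came CEP170P1 at 2.83, a gene ID without a symbol in the tables used here (767558) at 2.59, SPIN2A at 2.44 and JMJD7-PLA2G4B at 2.37. The gene ID 767558 was at 0 and 61.4 TPM in the barasertib libraries, so its difference rests on a single library, and JMJD7-PLA2G4B was at 10.0 and 1.43 TPM there. A log2 difference of at least 2 upward was reached by 18 tested genes, or 0.129%.

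The first place of THY1 depended on the setting for low values. With a pseudocount of 0.1 in place of 1, which enlarges the differences of low genes, its log2 difference was 3.93 and its rank 7, behind JMJD7-PLA2G4B, SPIN2A, TMEM200B, FAM120A2P, CEP170P1 and MIR3176. Without barasertib replicate 1 it was 2, behind gene ID 767558, and without DMSO replicate 2 it was 2, behind SLC9A3-OT1 (12.5 and 12.1 TPM with barasertib, 0 and 9.36 TPM with DMSO). FAM120A2P and SLC9A3-OT1 are named because they passed THY1 in these settings. The median log2 difference of all tested genes was 0.11 in TPM, and relative to it THY1 stood at 3.67. After median-of-ratios scaling, which moved that median to 0.00, THY1 was at 3.67, and after quantile normalisation at 3.65.

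**Figure D2:**
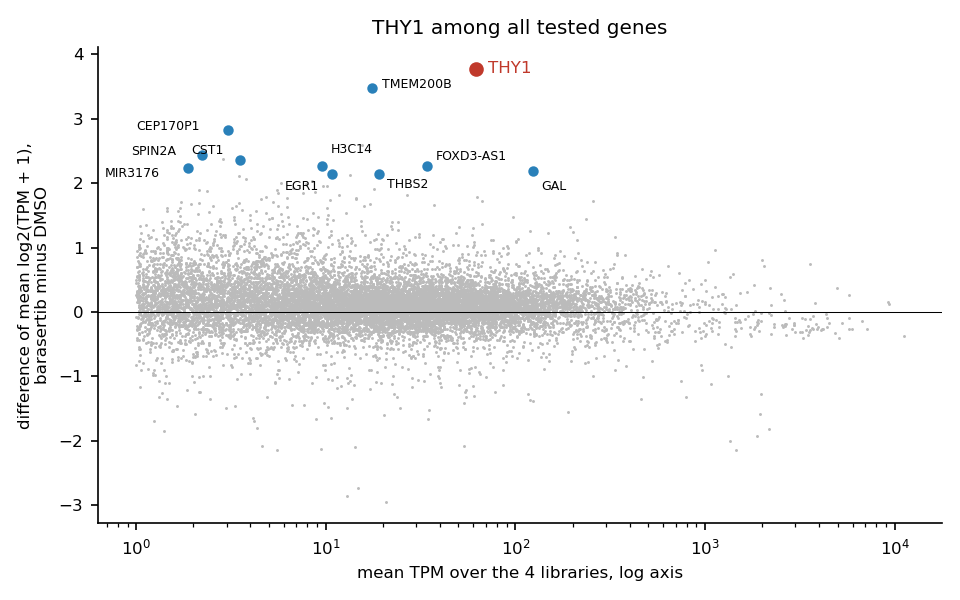
Difference of mean log2(TPM + 1), barasertib minus DMSO, against mean TPM over the 4 libraries (log axis) for all tested genes (grey), with THY1 in red and the 10 genes of most similar pattern in blue. THY1, at a difference of 3.78, lies above every other point, and TMEM200B, at 3.48, is nearest to it.

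By the hg19 positions in the tables, THY1 lies on the minus strand of chromosome 11, from 119288651 to 119295695, a span of 7045 bp. The only other locus in the files that overlaps it is USP2-AS1 (gene ID 100499227, also known as THY1-AS1), a long non-coding RNA on the plus strand. USP2-AS1 runs from 119252488 to 119369944, so that it begins 36.2 kb below THY1, spans it whole and ends 74.2 kb above it. It was at 1.56 and 1.06 TPM with barasertib and at 0.453 and 1.38 TPM with DMSO. The groups overlapped, and the DMSO libraries differed from each other by a factor of 3.05. The means were 1.31 ± 0.359 TPM with barasertib and 0.917 ± 0.657 TPM with DMSO (SD, n = 2 each), a log2 difference of 0.30 on the log2(TPM + 1) scale. Per length, THY1 exceeded USP2-AS1 by a factor of 77.0 and 105 in the barasertib libraries, and by 17.3 and 5.18 in the DMSO libraries.

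The sources used here do not give whether the counting used strand, so reads of a gene and of an overlapping antisense locus may not have been told apart. Exons in the annotation used for counting were not compared, and reads from unspliced USP2-AS1 RNA were not tested for. In GENCODE release 29 (GRCh38), none of the 4762 exon bases of USP2-AS1 fall in the 5925 exon bases of THY1 (0 shared bases). Whether every THY1 exon lies inside an intron of USP2-AS1 in that annotation was not checked. The same annotation places a further plus-strand transcript, AP003396.5, inside THY1, and all 632 of its exon bases are shared with THY1 exons. AP003396.5 has no row of its own matched in the files, and its part in the THY1 value was not tested.

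The genes around THY1 on chromosome 11 did not share its difference. Within 500 kb on either side the files hold 30 other gene IDs, of which 20 were tested. Of these, 4 passed the test upward and 3 downward (limma on log2(TPM + 1), Benjamini-Hochberg adjusted p under 0.05 over all tested genes). Over all tested genes 29.5% passed in either direction, 22.0% upward and 7.44% downward, and the 7 of 20 neighbours that passed stand beside that share, at a median log2 difference of 0.14 against 0.11 over all tested genes. Under all 3 scalings (TPM, median-of-ratios and quantile), 3 neighbours passed upward and 2 downward, where 10.7% of all tested genes passed upward and 7.05% downward.

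The nearest gene toward lower coordinates, USP2, a deubiquitinating enzyme 36.2 kb away, was at 2.09 and 2.58 TPM with barasertib and at 1.61 and 1.65 TPM with DMSO and did not pass (log2 difference 0.34, limma adjusted p = 0.167). Next came MFRP, at most 0.271 TPM in any library, C1QTNF5, listed at 0 in all 4 libraries, and RNF26, a ubiquitin ligase of the endoplasmic reticulum at 105 and 97.1 TPM with barasertib and 93.6 and 96.0 TPM with DMSO. Toward higher coordinates the nearest gene, NECTIN1, lies 213 kb away and encodes another adhesion molecule of the immunoglobulin superfamily. NECTIN1 was at 66.6 and 66.1 TPM with barasertib and 54.3 and 56.4 TPM with DMSO, a log2 difference of 0.26 (limma adjusted p = 0.0187) that did not pass under all 3 scalings and passed in 1 of the 4 fits that left out a library. NECTIN1-DT, at 305 kb, was at 2.38 and 3.05 TPM with barasertib against 1.30 and 0 TPM with DMSO (limma adjusted p = 0.0531). Beyond the 500 kb window, TRIM29 was at or near 0, and OAF, at 786 kb, was at 1.64 and 2.30 TPM with barasertib and 0.920 and 0.977 TPM with DMSO.

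MCAM, 101 kb from THY1 and on the same strand, rose. It encodes CD146, a further immunoglobulin-superfamily adhesion molecule that is used beside CD90 as a marker of mesenchymal stromal cells. MCAM was at 28.3 and 27.6 TPM with barasertib, against 15.1 and 15.8 TPM with DMSO (log2 difference 0.81 ± 0.07 SE, limma adjusted p = 0.00122). The call held under all 3 scalings and without any 1 of the 4 libraries. H2AX, a histone variant of DNA damage signalling, was at 213 and 196 TPM with barasertib against 134 and 129 TPM with DMSO (log2 difference 0.63, limma adjusted p = 0.00141), and C2CD2L, a lipid transfer protein at membrane contact sites, was at 8.01 and 7.18 TPM with barasertib against 4.38 and 4.80 TPM with DMSO (log2 difference 0.62, limma adjusted p = 0.0114). HYOU1, a chaperone of the endoplasmic reticulum, fell to 218 and 298 TPM with barasertib, against 744 and 579 TPM with DMSO (log2 difference -1.36, limma adjusted p = 0.00336). DPAGT1, which starts N-glycan assembly, was at 58.2 and 52.9 TPM with barasertib against 68.1 and 73.5 TPM with DMSO (log2 difference -0.35, limma adjusted p = 0.0172). The ribosomal protein gene RPS25 had a log2 difference of -0.26, which did not pass under all 3 scalings. Unlike that of MCAM, the calls of DPAGT1 and C2CD2L did not hold in every fit that left out a library. Between -1.36 and 1.29, the tested neighbours all lay well below the 3.78 of THY1.

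**Figure D3:**
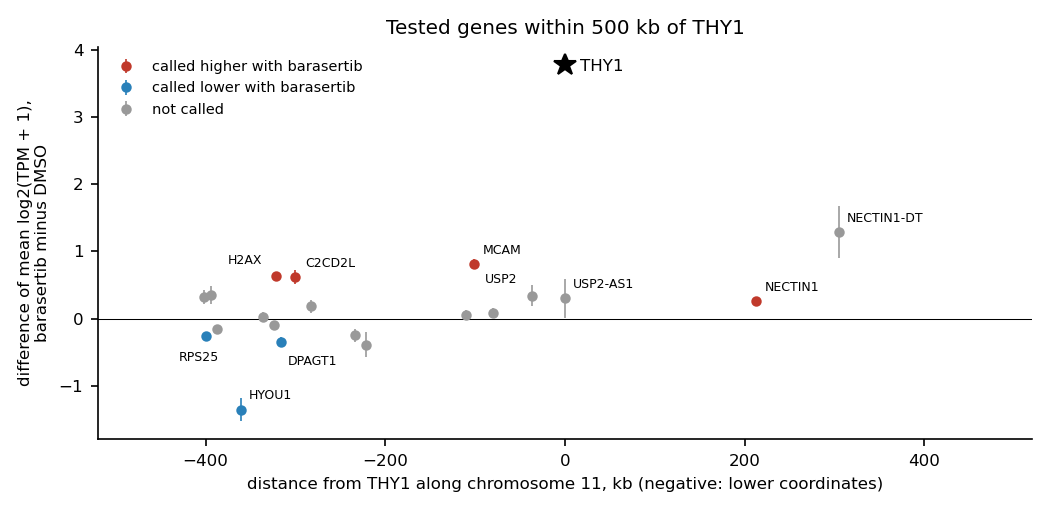
Difference of mean log2(TPM + 1), barasertib minus DMSO, for tested genes against their distance from THY1 along chromosome 11 in kb; bars are standard errors of the fit and colours show the call. THY1 (star) stands at 3.78, and no tested neighbour exceeds 1.29.

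The genes whose pattern over the 4 libraries was most like that of THY1 were found by the root-mean-square difference of log2(TPM + 1) values, each gene centred on its own mean. With 2 groups of 2 libraries this measure mostly reads the size of the group difference, so it is a description with no test. TMEM200B was closest, at 0.16, with 34.5 and 31.5 TPM with barasertib and 2.34 and 1.78 TPM with DMSO. Every other gene was at 0.48 or more. CEP170P1, a pseudogene of the centrosomal protein gene CEP170, was next at 0.48 (6.29 and 5.92 TPM with barasertib, listed at 0 with DMSO), and SPIN2A was at 0.67 (4.44 and 4.44 TPM with barasertib, listed at 0 with DMSO). Both have near-identical copies in the genome, so their values are uncertain.

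The other genes named by this measure were CST1, H3C14, FOXD3-AS1, GAL, THBS2, MIR3176 and EGR1, at 0.73 to 0.82. CST1, a secreted inhibitor of cysteine proteases, was at 6.56 and 6.5 TPM with barasertib and at 0.284 and 0.680 TPM with DMSO. EGR1, an immediate early transcription factor, was at 19.7 and 16.9 TPM with barasertib against 3.72 and 2.99 TPM with DMSO. FOXD3-AS1, a non-coding RNA, was at 57.0 and 57.9 TPM with barasertib against 11.1 and 11.3 TPM with DMSO. The neuropeptide gene GAL reached 214 and 193 TPM with barasertib, against 42.3 and 45.3 TPM with DMSO, and was the one gene of the 10 with a higher level than THY1 in the barasertib libraries. H3C14 is a histone gene with near-identical copies, and MIR3176 is a microRNA locus whose value in a messenger RNA library need not come from the microRNA.

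Among proteins with the same kind of anchor, THY1 changed place. With barasertib it ranked 5 among 122 genes for GPI-anchored surface proteins (THY1 and 121 others in the files), and with DMSO it ranked 24. With barasertib, CD24 (1681 and 1997 TPM), the glypican GPC4 (549 and 587 TPM), the Nodal co-receptor CRIPTO (458 and 514 TPM) and the glypican GPC3 (164 and 178 TPM) lay above it without overlap. Directly below it, ALPL, the tissue-nonspecific alkaline phosphatase used as a pluripotency stain, overlapped it at 112 and 109 TPM. LY6E, at 67.9 and 62.0 TPM, did not. With DMSO, THY1 overlapped ALPP (7.15 and 7.66 TPM) and EFNA3 (7.43 and 6.41 TPM) below it, and CD59 (10.5 and 10.9 TPM) lay above it. THY1 made up 3.18% and 2.65% of the summed TPM of these 122 genes with barasertib, and 0.221% and 0.212% with DMSO.

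**Figure D4:**
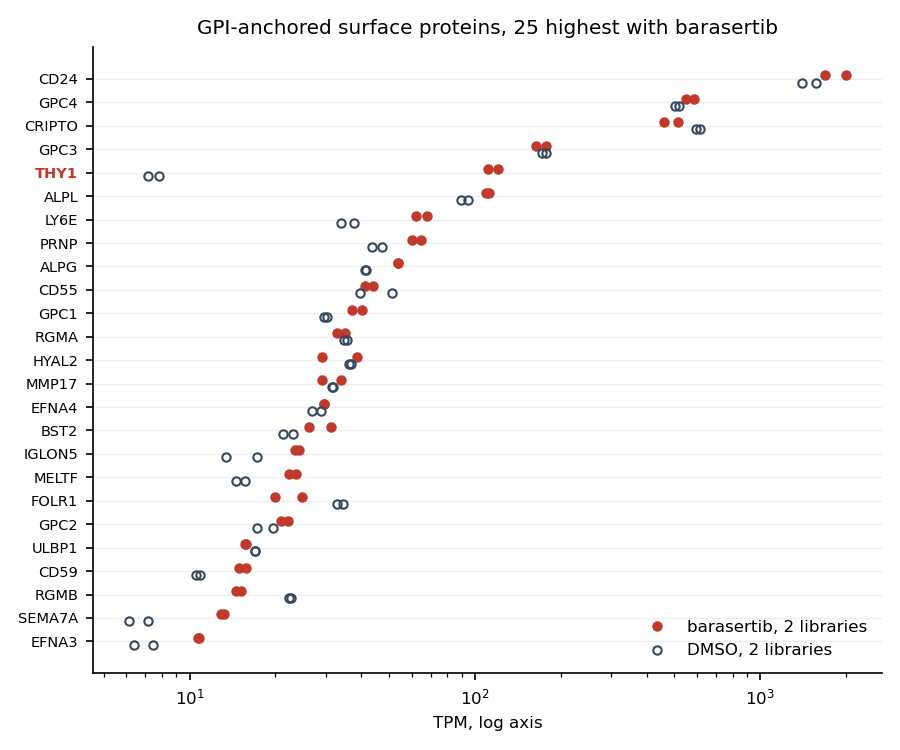
TPM (log axis) in each library of the 25 genes for GPI-anchored surface proteins that are highest with barasertib; filled points are barasertib libraries and open points DMSO libraries. THY1 is at 111 to 120.4 TPM with barasertib and 7.15 to 7.83 TPM with DMSO, the widest gap in the plot.

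On the log2(TPM + 1) scale, the tested GPI-anchored genes other than THY1 moved far less. That scale shrinks the differences of low genes, and members below the filter are not covered by this comparison. Of the 121 others in the files, 72 were below the filter (31 of these listed at 0 in every library) and 49 were tested. Of the 49, 19 rose and 4 fell, or 38.8% and 8.16%, beside 22.0% and 7.44% of all tested genes, and their median log2 difference was 0.27 against 0.11. Under all 3 scalings 11 rose and 4 fell, where 10.7% and 7.05% of all tested genes did. Fewer rose when any 1 of the 4 libraries was left out, as over all tested genes, while the falls held. The groups did not overlap in 35 of the 49, where 68.8% of all tested genes do not overlap. The member with the largest rise was CNTN1, a neural adhesion molecule of the immunoglobulin superfamily, at 8.32 and 8.77 TPM with barasertib and 1.43 and 2.48 TPM with DMSO (log2 difference 1.71 ± 0.19 SE, limma adjusted p = 0.00227), which is 2.06 less than that of THY1.

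Further GPI-anchored genes with low levels rose. CD52, a lymphocyte surface peptide, was at 4.93 and 5.51 TPM with barasertib and 0.864 and 1.85 TPM with DMSO (limma adjusted p = 0.00705). CNTFR, the binding subunit of the receptor for ciliary neurotrophic factor, was at 2.07 and 1.80 TPM with barasertib against 0.106 and 0.228 TPM with DMSO (limma adjusted p = 0.00627). The CD52 call was lost without either barasertib library, and CNTFR then fell below the filter. CNTFR passed the filter only through its barasertib values, so it could be tested only because it was higher there. SEMA7A, a semaphorin, was at 12.9 and 13.2 TPM with barasertib against 7.18 and 6.12 TPM with DMSO (log2 difference 0.88, limma adjusted p = 0.00287), and LY6E had a log2 difference of 0.84 (limma adjusted p = 0.00143). The most abundant member, CD24, did not pass (1681 and 1997 TPM with barasertib, 1571 and 1394 TPM with DMSO, limma adjusted p = 0.0503). The members that fell were EFNA5, FOLR1, RGMB and CRIPTO, the first 3 named after their values were seen, at log2 differences of -0.62, -0.58, -0.57 and -0.32.

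The enzymes that build the GPI anchor and attach it to proteins such as THY1 changed little. Of 26 genes, 25 were tested, 3 rose and 1 fell, or 12% and 4.00% beside 22.0% and 7.44% of all tested genes, at a median log2 difference of 0.07 against 0.11 over all tested genes. PIGT, a subunit of the transamidase that joins anchor and protein, was at 55.5 and 48.3 TPM with barasertib and 36.4 and 36.8 TPM with DMSO (log2 difference 0.49, limma adjusted p = 0.00795). PIGU, another transamidase subunit, was at 30.1 and 31.2 TPM with barasertib against 36.9 and 35.9 TPM with DMSO (log2 difference -0.24, limma adjusted p = 0.0341, lost without any 1 of the 4 libraries). DPM3, a subunit of the enzyme that makes the mannose donor, rose by a log2 difference of 0.47 (limma adjusted p = 0.00642). PIGG, which adds an ethanolamine phosphate, rose by 0.31 (limma adjusted p = 0.0249), a call that was lost under the other scalings and without any 1 of the 4 libraries. The most abundant member, DPM1, did not pass (limma adjusted p = 0.0656).

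Genes for remodelling the anchor and carrying GPI-anchored proteins out of the endoplasmic reticulum went both ways. All 13 were tested, and 2 rose and 5 fell, or 15.4% and 38.5% beside 22.0% and 7.44% of all tested genes. The same counts passed under all 3 scalings, where 10.7% and 7.05% of all tested genes passed, and the median log2 difference was -0.09 against 0.11. In the 4 fits that left out a library, 1 to 3 rose and 4 fell. Those that fell were carriers. TMED2 and TMED10, receptors that load GPI-anchored proteins into transport vesicles, were at 197 and 208 TPM with barasertib against 276 and 288 TPM with DMSO (log2 difference -0.47, limma adjusted p = 0.00189) and at 84.7 and 92.9 TPM with barasertib against 127 and 133 TPM with DMSO (log2 difference -0.55, limma adjusted p = 0.00253). SEC24D, a coat subunit of those vesicles, fell by 0.85 on the log2 scale (limma adjusted p = 0.000759), and TMED9 and SEC24C, named after their values were seen, fell by 0.33 and 0.21, the SEC24C call being lost without any 1 of the 4 libraries. PGAP4 and PGAP6, which act on the anchor itself, rose by log2 differences of 0.83 and 0.55 (limma adjusted p = 0.0101 and 0.00693). PGAP4 was at 3.50 and 3.29 TPM with barasertib and 1.41 and 1.54 TPM with DMSO, and its call was lost without either barasertib library.

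Among the surface molecules that THY1 binds, 3 of 6 tested genes rose and none fell (0), where 22.0% of all tested genes rose and 7.44% fell. The 3 also rose under all 3 scalings, beside 10.7% of all tested genes. The fall of 1 member, ITGB5, named after its value was seen (29.9 and 30.5 TPM with barasertib, 38.2 and 33.9 TPM with DMSO), passed after median-of-ratios scaling and after quantile normalisation but not in TPM (limma adjusted p = 0.0589). ITGA5, the alpha subunit of the fibronectin receptor, was at 13.7 and 12.7 TPM with barasertib and 5.07 and 4.87 TPM with DMSO (log2 difference 1.25 ± 0.10 SE, limma adjusted p = 0.000825). SDC4, the heparan sulfate proteoglycan syndecan-4, was at 55.0 and 54.9 TPM with barasertib against 24.0 and 26.9 TPM with DMSO (log2 difference 1.08 ± 0.07 SE, limma adjusted p = 0.000617). ITGAV, the alpha subunit of the vitronectin receptors, was at 17.8 and 20.2 TPM with barasertib against 11.6 and 14 TPM with DMSO (log2 difference 0.53, limma adjusted p = 0.0195), and its call held in 1 of the 4 fits that left out a library. ITGB1, the beta partner of ITGA5 and the most abundant member, was at 191 and 181 TPM with barasertib against 169 and 151 TPM with DMSO and did not pass (limma adjusted p = 0.0525). ITGB3, the beta subunit of the integrin best known as a receptor for THY1, was below the filter, at most 0.0848 TPM in any library. The leukocyte integrin genes ITGAM, ITGAX and ITGB2 were below it too. ITGAX was at 1.45 and 1.19 TPM with barasertib against 0.217 and 0.363 TPM with DMSO. ITGAM was at 0.734 and 0.709 TPM with barasertib against 0.184 and 0.0219 TPM with DMSO, while the groups overlapped in ITGB2.

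In the list of Src family kinases and adhesion signalling, 7 of 17 tested genes rose and 1 fell, or 41.2% and 5.88% beside 22.0% and 7.44% of all tested genes, at a median log2 difference of 0.20 against 0.11. Under all 3 scalings 4 rose and 1 fell, where 10.7% and 7.05% of all tested genes did. Fewer rose when any 1 of the 4 libraries was left out, as over all tested genes. LCK, the Src family kinase of T cells, was at 10.2 and 9.08 TPM with barasertib and 3.5 and 2.80 TPM with DMSO (log2 difference 1.36 ± 0.13 SE, limma adjusted p = 0.00159). PXN, the focal adhesion scaffold paxillin, was at 62.8 and 59.1 TPM with barasertib against 41.4 and 41.0 TPM with DMSO (log2 difference 0.55, limma adjusted p = 0.00222). YES1, FLOT1 and BCAR1 rose by log2 differences of 0.36, 0.33 and 0.31, the last not under all 3 scalings. FYN, the kinase most often found with THY1 in membrane patches and named after its value was seen, was at 102 and 104 TPM with barasertib and 120.3 and 128 TPM with DMSO, a log2 difference of -0.26 (limma adjusted p = 0.0158) that passed in 1 of the 4 fits that left out a library. The most abundant member, RHOA, did not pass (limma adjusted p = 0.346).

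THY1 is a marker of several cell types, and the other markers of those types were looked at beside it. All 12 embryonal carcinoma markers were above the filter in these libraries, and 7 of them rose and 2 fell, or 58.3% and 16.7% beside 22.0% and 7.44% of all tested genes. Their summed TPM was 7397 and 7450.2 with barasertib and 6693 and 6535 with DMSO. POU5F1 (OCT4) was at 3999 and 3949 TPM with barasertib and 3708 and 3524 TPM with DMSO, whereas TNFRSF8 (CD30), a defining surface marker of embryonal carcinoma named after its value was seen, was at 3.42 and 3.0 TPM with barasertib against 3.77 and 3.0 TPM with DMSO. The number of markers that rose was 3 under all 3 scalings, where 10.7% of all tested genes rose. It was smaller when any 1 of the 4 libraries was left out, as it was over all tested genes. GDF3, a TGF-beta ligand of pluripotent cells, rose most, at 166 and 171 TPM with barasertib against 72.4 and 68.0 TPM with DMSO (limma adjusted p = 0.000226), followed by DPPA4, DNMT3B and NANOG at log2 differences of 1.12, 0.89 and 0.62. CRIPTO and SOX2, a core pluripotency factor that was chosen for mention with its value known, fell by 0.32 and 0.21 on the log2 scale (limma adjusted p = 0.0126 and 0.0143), and the SOX2 call held in 2 of the 4 fits that left out a library. The DPPA4 values were uneven with DMSO (90.4 and 188 TPM), and that call was lost under the other scalings and without either barasertib library.

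Surface markers of pluripotent and embryonal carcinoma cells moved in both directions. This list is not separate from those above. CRIPTO and TNFRSF8 are also embryonal carcinoma markers of the preceding list, and CD24, ALPL and CRIPTO are also counted among the GPI-anchored genes. Of 18 tested, 7 rose and 3 fell, or 38.9% and 16.7% beside 22.0% and 7.44% of all tested genes, at a median log2 difference of 0.12 against 0.11. Under all 3 scalings 5 rose and 3 fell, where 10.7% and 7.05% of all tested genes did. CDH1 (E-cadherin) fell to 7.06 and 7.59 TPM with barasertib, against 20.0 and 20.6 TPM with DMSO (log2 difference -1.35 ± 0.08 SE, limma adjusted p = 0.000465). PROM1 (CD133) fell to 105 and 119 TPM with barasertib, against 186 and 194 TPM with DMSO (log2 difference -0.76, limma adjusted p = 0.00126). DPP4 (CD26) was at 9.49 and 12.2 TPM with barasertib and 4.25 and 5.17 TPM with DMSO (log2 difference 1.04, limma adjusted p = 0.00525). PTPRZ1 and LRRN1 rose by log2 differences of 0.62 and 0.50.

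Of 23 fibroblast and mesenchymal markers other than THY1, 12 were tested, 8 rose and 1 fell, or 66.7% and 8.33% beside 22.0% and 7.44% of all tested genes. Under all 3 scalings 5 rose and 0 fell, where 10.7% and 7.05% of all tested genes did. Fewer rose when either barasertib library or DMSO replicate 1 was left out, as over all tested genes. NGFR (CD271), a neurotrophin receptor, was at 14.3 and 10.5 TPM with barasertib and 2.79 and 2.62 TPM with DMSO (log2 difference 1.84 ± 0.16 SE, limma adjusted p = 0.00112). POSTN, the matrix protein periostin, was at 15.3 and 17.3 TPM with barasertib against 5.42 and 5.38 TPM with DMSO (log2 difference 1.43 ± 0.10 SE, limma adjusted p = 0.000617). CD44, the hyaluronan receptor, rose by a log2 difference of 0.63, and S100A4 by 0.54, the last not under all 3 scalings. VIM (vimentin), the most abundant, was at 2942 and 2842 TPM with barasertib and 3721 and 3465 TPM with DMSO, a fall (limma adjusted p = 0.00446) that was lost after quantile normalisation.

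Several fibroblast genes of the list were at or near 0 in all 4 libraries, and others were not. FAP and VCAM1 were listed at 0 throughout, and COL1A2, DCN, LUM, PDGFRB and ACTA2 reached no more than 0.294 TPM in any library. PDGFRA, a receptor for platelet-derived growth factor, was at 10.0 and 10.6 TPM with barasertib and 7.02 and 7.63 TPM with DMSO (limma adjusted p = 0.0196, lost after quantile normalisation and held in 1 of the 4 fits that left out a library). The matrix genes FN1 and SPARC were at 92.4 and 93.3 TPM and at 81.0 and 83.2 TPM with barasertib, against 77.3 and 70.5 TPM and 66.6 and 66.1 TPM with DMSO, and both rose (limma adjusted p = 0.0129 and 0.00911), FN1 not under all 3 scalings. COL3A1 and TAGLN lay between 1.18 and 5.66 TPM in all 4 libraries and did not pass (limma adjusted p = 0.484 and 0.426). LEPR, at 8.21 and 8.45 TPM with barasertib against 8.58 and 10.5 TPM with DMSO, did not pass (limma adjusted p = 0.311). ALCAM, below the filter, was also lower with barasertib, at 0.621 and 0.813 TPM against 0.942 and 1.31 TPM with DMSO. PDGFRA, FN1, SPARC, COL3A1, TAGLN, LEPR and ALCAM were named after their values were seen. COL1A1 was at 1.41 and 0.990 TPM with barasertib and 0.497 and 0.210 TPM with DMSO. NT5E (CD73) and ENG (CD105), the surface markers that define mesenchymal stromal cells together with CD90, were at 0.348 and 0.280 TPM with barasertib against 0.295 and 0.117 TPM with DMSO and at 1.20 and 0.995 TPM with barasertib against 0.460 and 0.373 TPM with DMSO, all below the filter. The summed TPM of the list, most of it VIM, was 3246 and 3148 with barasertib and 3940.4 and 3680.2 with DMSO. In libraries of whole cultures, a small number of cells with much THY1 RNA and a modest level in every cell cannot be told apart.

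Neuron markers ranged widely in level. Of 15, 7 were tested, and 4 rose and 1 fell, or 57.1% and 14.3% beside 22.0% and 7.44% of all tested genes. The number that rose was 1 under all 3 scalings, where 10.7% of all tested genes rose. It was smaller when any 1 of the 4 libraries was left out, as over all tested genes. L1CAM, an adhesion molecule of the immunoglobulin superfamily, was at 65.0 and 64.1 TPM with barasertib and 39.6 and 33.3 TPM with DMSO (log2 difference 0.81, limma adjusted p = 0.00227), and NCAM1, TUBB3 and GAP43 rose by log2 differences of 0.39, 0.34 and 0.31, none of them under all 3 scalings. STMN2, a regulator of microtubules, was at 89.5 and 96.5 TPM with barasertib and 110.2 and 123 TPM with DMSO (limma adjusted p = 0.0211), a fall that passed only without DMSO replicate 1 among the fits that left out a library. NEFM was listed at 0 throughout, and SYN1, ELAVL3 and ELAVL4, at no more than 0.475 TPM, overlapped between the groups. RBFOX3, SNAP25, SYP and NEFL, also below the filter, were higher with barasertib without overlap. RBFOX3 was at 0.764 and 0.750 TPM with barasertib against 0.219 and 0.208 TPM with DMSO. SYP was at 1.13 and 0.917 TPM with barasertib against 0.560 and 0.295 TPM with DMSO. MAP2 and DCX did not pass (limma adjusted p = 0.25 and 0.573). All of these low or uncalled genes were named after their values were seen. The summed TPM of the neuron list was 308 and 302 with barasertib and 267 and 268 with DMSO. Of 12 blood and endothelial markers 2 were tested, 1 rose and 0 fell, where 22.0% of all tested genes rose and 7.44% fell. With 2 tested members, the count is too small to be compared with those shares. PTPRC, CD3E, CD3D, CD2 and CD34 were listed at 0 in all 4 libraries. CD4 and CLDN5, named after their values were seen, were not. CD4 was at 1.83 and 1.33 TPM with barasertib against 1.15 and 1.48 TPM with DMSO and did not pass (limma adjusted p = 0.588). CLDN5, below the filter, was higher with barasertib, at 1.42 and 1.55 TPM against 0.589 and 0.135 TPM with DMSO. LYVE1 was at 2.40 and 2.19 TPM with barasertib and 0.807 and 0.749 TPM with DMSO (limma adjusted p = 0.0131, lost without either barasertib library). With a mean of 0.778 TPM with DMSO and 2.30 TPM with barasertib, LYVE1 passed the filter only through its barasertib values. It could therefore be tested only because it was higher there. The summed TPM of the blood and endothelial list was 6.02 and 5.39 with barasertib and 2.76 and 2.54 with DMSO.

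**Figure D5:**
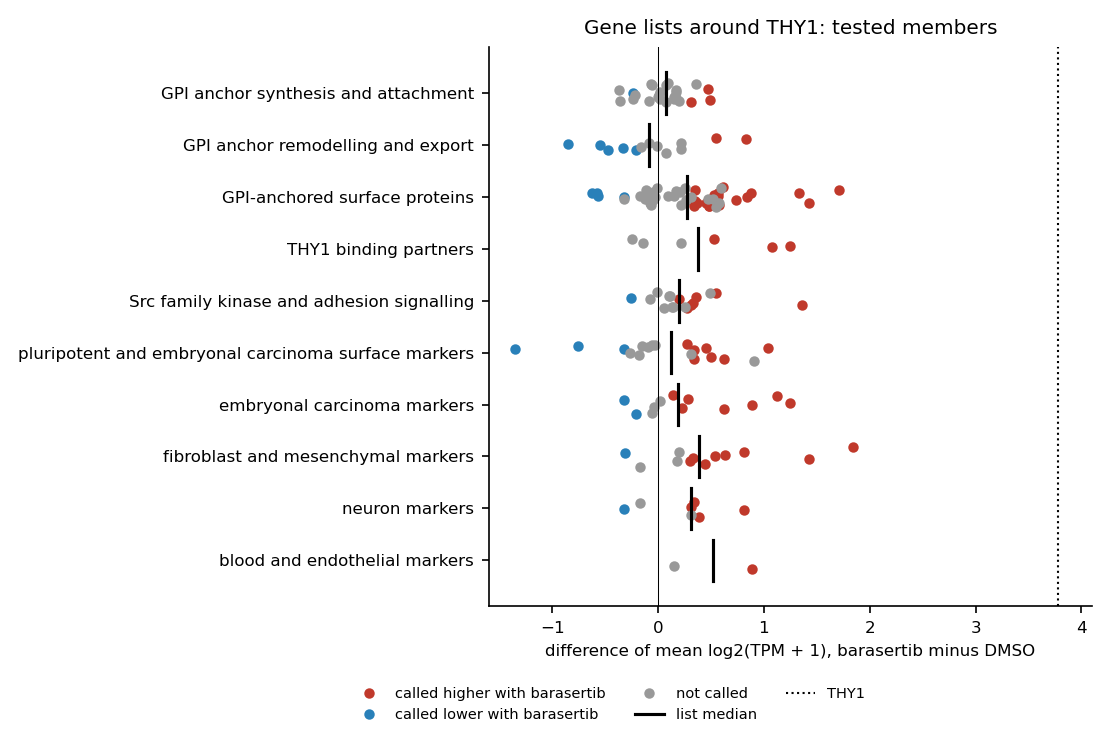
Difference of mean log2(TPM + 1), barasertib minus DMSO, for the tested members of each list (points, coloured by call; vertical position within a row is arbitrary), with list medians as black bars. The dotted line is THY1 at 3.78, and no list member exceeds 1.84.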

How the data were processed

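Per the submitters' processing notes, HISAT2 and StringTie were used with hg19; their versions and options are not stated there. The deposited tables give coverage (a signal, the mean depth over a gene), FPKM and TPM per gene row, per the file headers. Rows were summed per gene ID, and 27559 of 27685 IDs matched a RefSeq symbol (GRCh38.p14, names only). The 13938 genes that averaged 1 TPM or more were tested with limma 3.58.1 (R 4.3.3) on log2(TPM + 1), group as the only term, with a mean-variance trend, two-sided, Benjamini-Hochberg adjusted over all tested genes, threshold 0.05. A gene that averaged below 1 TPM in a group could pass this filter only if it was higher in the other group. The fit was tested on simulated data. Aligned bases were taken as the highest ratio of coverage to FPKM among rows of at least 1 FPKM. THY1 and the 10 gene lists were chosen with earlier results of these data known. Named genes are THY1; overlapping loci; the 10 most similar patterns; the 5 next differences; the neighbours in level; the nearest 4 genes on each side and called genes within 500 kb; and the most abundant member of each list and its 5 largest called changes. Other named genes were chosen after their values were seen. Alternatives were other filters, pseudocounts, FPKM, scalings, no trend, a replicate block and each library left out. Tables and plots used Python 3.11.15 and matplotlib 3.10.9.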

Additional observations from a re-analysis of the deposited data

How the results depend on the processing

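THY1 was higher with barasertib under every alternative run. Its log2 difference, 3.78, was 3.93 with a pseudocount of 0.1, 3.27 with a pseudocount of 5, 3.57 with FPKM, 3.67 after median-of-ratios scaling and 3.65 after quantile normalisation, and 3.72 to 3.84 with a library left out. Its rank by that difference was 1, but 7 with a pseudocount of 0.1, and 1 to 2 with a library left out.

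Over all tested genes, 3071 passed upward and 1037 downward. The counts were 435 and 160 without the filter, 1668 and 1721 after median-of-ratios scaling, 1649 and 1590 after quantile normalisation, and 2212 and 674 without the mean-variance trend; with a library left out they ran from 1365 to 2181 and from 601 to 699. Of the 262 genes of all 10 lists pooled 156 were tested, and 60 of these passed upward and 16 downward, against 9 and 3 without the filter, 39 upward after median-of-ratios scaling, 10 downward without the trend, and 31 to 50 upward and 12 to 15 downward with a library left out. Among the genes within 500 kb of THY1, 4 passed upward and 3 downward, against 1 and 0 without the filter, 6 downward after median-of-ratios scaling, 5 downward after quantile normalisation and 1 downward without the trend, and 2 to 6 upward and 2 to 3 downward with a library left out. Without the filter, 27685 IDs enter the adjustment; otherwise the cause was not tested. Of the 260 counts for single lists under the 13 alternatives, 188 stayed within 1.5 times the reported count.

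The replicate number was not shown to pair the libraries, since same-numbered deviations correlated at 0.02 over genes. With a replicate block, 3218 genes passed upward and 1080 downward, and THY1 stayed at 3.78. The depth per gene is known only as mean coverage, which limits what can be said of genes below the filter.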
